A study of Mus musculus with 1814 samples.

Results

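The 6 mismatch repair genes Msh3, Msh6, Mlh3, Pms2, Pms1 and Exo1 were followed through single germinal center B cells of mice. They were chosen by name, and all 6 were found among the 25125 genes of the combined table of experiments 1, 3 and 4 and among the 15177 genes of the combined table of experiment 5. Germinal centers are sites in lymphoid organs where B cells divide and mutate their antibody genes in a dark zone and are selected in a light zone. Each of the 1814 labelled wells held a single sorted cell, and its RNA was sequenced with SmartSeq2, which copies whole transcripts and neither tags molecules nor keeps strand. Labels gave a zone, a time of 12, 30, 46 or 60 h without naming its start, and a Dec status, or in experiment 5 a genotype. Experiment 1 had 42 dark zone cells labelled 30 h, the time used here, although the authors' own cell metadata also place them in a group named for 36 h. They named no animal, age or strain, so p-values measure the spread between sums of these wells, which may be technical.

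The groups were Dec+ dark zone cells (501 kept cells of experiments 3 and 4, and 42 cells of experiment 1 at 30 h), Dec+ light zone cells (170 kept cells of experiments 3 and 4, and, at 12 h of experiment 1, 58, 56 and 52 cells on the plates GC1, GC2 and GC3) and Dec- light zone cells (80 cells of experiment 1 at 12 h). Experiment 5 held 62 KO dark zone cells, TA dark zone cells (26, 26, 24 and 25 on plates 1 to 4), 82 WT dark zone cells and 61 KO, 22 TA and 41 WT light zone cells, all labelled Dec positive and with no time. The labels did not state what KO and TA alter or which promoter or cell type any allele depends on, and the plates carried the name Ccnd3. Summed Ccnd3 counts were 89.3 CPM (counts scaled to a common library total) in KO, 287.3 CPM in TA and 477 CPM in WT dark zone cells. In the light zone they were 78.6 CPM in KO, 118.9 CPM in TA and 350.0 CPM in WT cells. Median counts per cell ran from 128143 in WT light zone cells to 443288 in the Dec+ light zone cells of experiment 1. In the zone sums of experiments 3 and 4, 5 B cell markers together held 5754 to 7432 CPM in the dark zone and 4858 to 6961 CPM in the light zone, and the germinal center B cell markers Bcl6, Fas, S1pr2 and Mef2b were detected in both zones.

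Mismatch repair corrects errors left behind by the replication machinery. MutS proteins recognise the lesion: Msh6-containing dimers bind base mismatches and small loops, and Msh3-containing dimers bind larger loops. MutL proteins are recruited next, among them the endonuclease subunit Pms2, Mlh3, best known from meiosis, and Pms1, whose part in repair is less clear, and the exonuclease Exo1 then removes the strand to be replaced. In germinal center B cells Msh6-containing dimers and Exo1 also process uracils in antibody genes. With the polymerase Polh they spread mutations to A and T bases.

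The RefSeq promoter table (GRCm38.p6) was used for the sequence upstream of Msh6, Mlh3, Pms2 and Pms1. These 250 bases, read on the strand of the gene, are shown because Msh6, Pms2 and Pms1 were detected in more S phase than G1 cells in every harvest, and Mlh3 was not. Capitals mark matches, on either strand, to 3 E2F-type motifs (TTTGGCGC, TTTCCCGC, TTTCGCGC) and to CCAAT, the NF-Y motif.
Msh6, chr17:87974800-87975049, plus strand: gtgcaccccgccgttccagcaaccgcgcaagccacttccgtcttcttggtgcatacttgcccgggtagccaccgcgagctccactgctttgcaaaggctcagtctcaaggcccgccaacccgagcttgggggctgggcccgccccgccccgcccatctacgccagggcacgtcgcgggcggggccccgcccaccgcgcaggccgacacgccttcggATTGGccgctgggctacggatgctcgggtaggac
Mlh3, chr12:85270600-85270849, minus strand: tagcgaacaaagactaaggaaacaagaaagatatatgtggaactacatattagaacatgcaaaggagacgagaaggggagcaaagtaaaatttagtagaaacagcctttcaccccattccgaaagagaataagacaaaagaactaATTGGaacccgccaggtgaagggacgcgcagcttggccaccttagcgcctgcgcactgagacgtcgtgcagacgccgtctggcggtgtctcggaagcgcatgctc
Pms2, chr5:143909751-143910000, plus strand: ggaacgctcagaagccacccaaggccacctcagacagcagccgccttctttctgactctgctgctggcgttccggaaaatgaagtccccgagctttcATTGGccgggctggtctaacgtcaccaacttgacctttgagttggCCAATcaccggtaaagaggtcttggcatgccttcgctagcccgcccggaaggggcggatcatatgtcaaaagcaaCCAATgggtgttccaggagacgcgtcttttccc
Pms1, chr1:53297029-53297278, minus strand: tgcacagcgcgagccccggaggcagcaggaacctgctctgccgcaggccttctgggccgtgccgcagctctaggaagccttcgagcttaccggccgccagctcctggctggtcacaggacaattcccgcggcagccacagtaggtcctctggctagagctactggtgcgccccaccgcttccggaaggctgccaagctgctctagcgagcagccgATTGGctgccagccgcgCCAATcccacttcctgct
No E2F-type match was found in these 4 windows. The window upstream of Msh3, whose letters are not printed, held 2 overlapping matches, and Msh3 was also detected in more S phase than G1 cells in every harvest. Of all 32851 promoters of this length 1.53% held a match. All 4 held CCAAT or its reverse, as 33.8% of promoters did. They held 14 to 27 CpG pairs, against a median of 6 over all promoters, and 27 of them stood before Msh6. Counting did not separate strands as far as the sources used here state, so reads of a gene that overlaps a member cannot be told apart from the member's own. Pms2 and Aimp2 start close to each other in opposite directions without overlapping.

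Msh6 had the highest level per length of the 6 in both zones. Divided by exon length, its sums averaged 34.9 ± 8.89 CPM per kb in the dark zone and 32.5 ± 10.2 CPM per kb in the light zone (SD, n = 7 harvests each). In dark zone sums Msh3 followed at 8.02 ± 1.12 CPM per kb, with Pms2 at 4.5 ± 1.33, Exo1 at 4.17 ± 1.87, Pms1 at 2.47 ± 1.15 and Mlh3 at 1.87 ± 1.81 CPM per kb (SD, n = 7). Every dark zone Msh6 sum lay above every Msh3 sum, which ran from 6.40 to 9.24 CPM per kb. The ranges of all further neighbours in this order overlapped, Msh3 and Pms2 included, whose highest sum was 6.52 CPM per kb. That overlap depends on the exon lengths used, 11254 bases for Msh3 and 8117 for Pms2. Undivided, Msh3 sums of 72.03 to 104.01 CPM lay above Pms2 sums of 21.1 to 52.9 CPM. In light zone sums Exo1 came after Msh6, at 5.21 ± 4.31 CPM per kb, and then Msh3 at 5.08 ± 1.74 (SD, n = 7). For every member but Msh6, most single cells showed no count. Over the 965 cells of experiments 1, 3 and 4, 50.8% had a count of Msh6 and 36.3% of Msh3. Pms2 had counts in 24.1%, Exo1 in 23.2%, Pms1 in 13.99% and Mlh3 in 7.77%. Cells of 1 sum share an experiment and are not replicates. In sums, fewer cells with a transcript and less RNA per cell cannot be told apart.

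Cell cycle phase was called by the authors as text in the deposited cell tables. The phases were compared in Dec+ dark zone cells over 8 harvests (each an experiment and time, from experiments 3 and 4 alone), with 32.9% of the 501 cells called G1, 34.1% S and 32.9% G2M. Exo1 passed the test in both comparisons with G1. It is itself in the S phase gene set of Seurat, a tool the submitters' notes name, so its difference between phases is given as a description. The calls were made from RNA of the same cells, so no phase comparison is independent of expression. Summed Exo1 ran from 0 over a median of 0 to 4.82 CPM in G1, from 40.5 over 78.3 to 157.5 CPM in S, and from 0 over 31.1 to 45.3 CPM in G2M. Every S sum lay above every G1 sum, as for 1.74% of all genes tested, and 5 of the 8 G1 sums held no Exo1 count. The group means were 84.1 ± 40.3 CPM in S and 1.21 ± 2.11 CPM in G1 (SD, n = 8), with a fitted log2 ratio of 7.63 ± 1.43 (SE) that depends on the prior count because of the empty G1 sums (edgeR's quasi-likelihood test, adjusted p = 0.0020). In G2M the mean was 24.6 ± 17.7 CPM, and the fitted log2 ratio to G1 was 5.23 ± 1.35 (edgeR, adjusted p = 0.0245). Without experiment 3 the adjusted p became 0.146 for S and 0.326 for G2M, and without experiment 4 it became 0.108 and 0.316, with log2 ratios from 5.22 to 7.74.

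**Figure D1:**
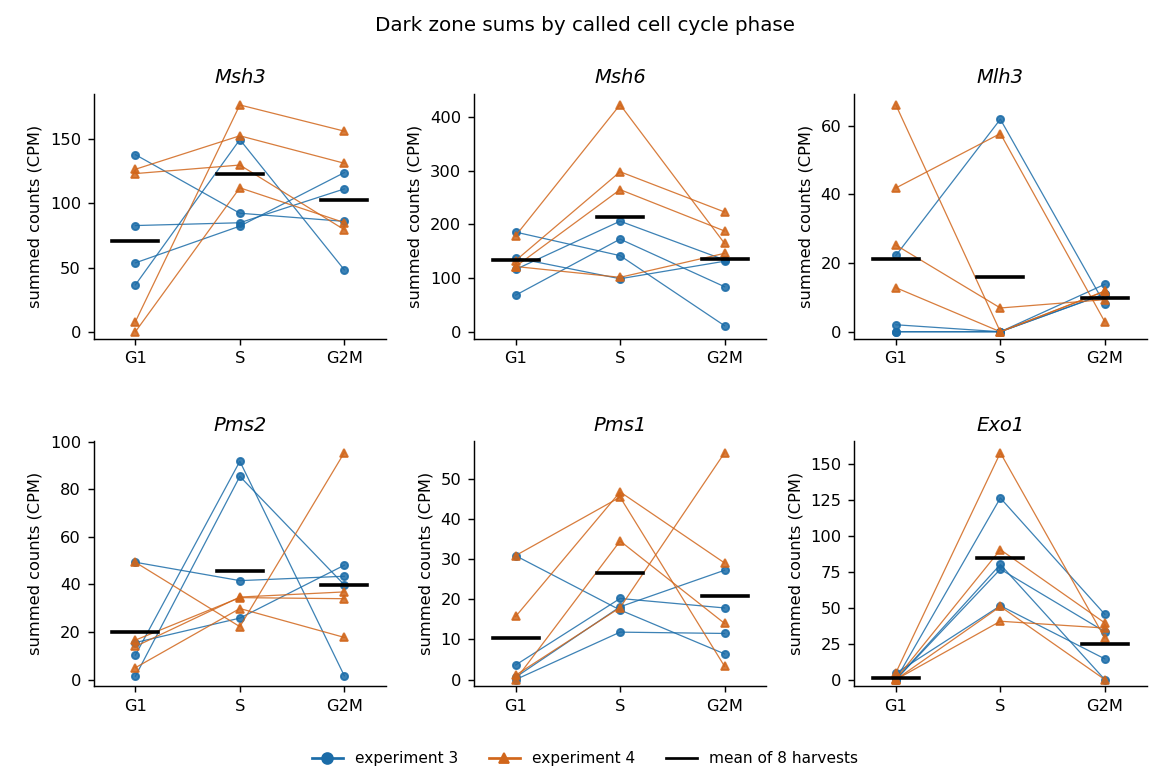
Summed counts of each gene (y axis, CPM on a linear scale of its own per panel) in dark zone cells called G1, S or G2M (x axis). Points joined by a line are the sums of 1 harvest, coloured by experiment, and black bars are the means of 8 harvests. All Exo1 sums in S lie above all those in G1, whereas the groups overlap for the other 5 genes.

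The other 5 genes did not pass the test between phases. Counting Exo1, 1 of 6 members was higher in S than in G1, where 6.15% of the 9129 genes tested were called and 4.56% were called higher. In G2M 1 of 6 was higher than in G1, where 5.42% were called and 4.11% were called higher. Without experiment 3 or 4 no member was called, and 0.945% and 1.22% of genes were called in S, and 0.934% and 1.46% in G2M. Summed Msh3 averaged 122.6 ± 35.3 CPM in S and 71.1 ± 54.7 CPM in G1 (SD, n = 8), and the S sum was the higher in 7 of 8 harvests, as 12.7% of all genes were in at least 7. Its log2 ratio was 1.07 ± 0.66 (edgeR, adjusted p = 0.501). Summed Msh6 averaged 213.3 ± 111.05 CPM in S and 132.8 ± 37.1 CPM in G1 (SD, n = 8) and was higher in S in 5 of 8 harvests, as 42.8% of all genes were in at least 5, with a log2 ratio of 0.55 ± 0.37 (edgeR, adjusted p = 0.546). The groups overlapped widely for both MutS genes.

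Among the MutL genes, summed Pms2 averaged 45.7 ± 27.1 CPM in S and 20.2 ± 18.7 CPM in G1 (SD, n = 8). The S sum was higher in 6 of 8 harvests, as 25.6% of all genes were in at least 6, and the log2 ratio was 1.64 ± 0.75 (edgeR, p = 0.0407, adjusted p = 0.275). Summed Pms1 averaged 26.5 ± 13.7 CPM in S and 10.3 ± 13.7 CPM in G1 (SD, n = 8) and was higher in S in 7 of 8 harvests. Its log2 ratio was 2.38 ± 1.25 (edgeR, adjusted p = 0.377, and DESeq2, adjusted p = 0.0499). In this comparison DESeq2 called 13.1% of all genes, against 6.15% by edgeR. Mlh3 had no count in 5 of 8 S sums and averaged 15.8 ± 27.3 CPM in S and 21.3 ± 23.3 CPM in G1 (SD, n = 8; edgeR, log2 ratio -2.30 ± 1.962, adjusted p = 0.687). In G2M the log2 ratios to G1 of Msh3, Msh6, Mlh3, Pms2 and Pms1 ran from -0.09 to 2.26, with adjusted p from 0.531 to 0.967 (edgeR).

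The number of cells with a count followed phase more evenly than the sums did. For this measure each cell was thinned to 50000 counts, which left out 10 of 501 dark zone cells and 2 of 170 light zone cells with fewer. A Msh3 count was left in 19.02% of G1, 50% of S and 40.6% of G2M dark zone cells. Msh6 counts were left in 31.3% of G1, 63.1% of S and 52.5% of G2M cells. Pms2 had shares of 9.20%, 26.8% and 23.1%, and Pms1 had shares of 3.07%, 16.1% and 14.4%, in G1, S and G2M. The share of Exo1 was 1.84% in G1, 38.7% in S and 16.9% in G2M. Mlh3 was the exception, with 6.75% in G1, 2.98% in S and 8.75% in G2M cells with overlapping exact binomial 95% intervals of 3.42% to 11.8%, 0.973% to 6.81% and 4.87% to 14.2%. Unthinned, Msh3 shares were 21.8% in G1, 54.4% in S and 43.03% in G2M.

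Over harvests, the S share of thinned cells was above the G1 share in 8 of 8 for Msh3, Msh6, Pms2, Pms1 and Exo1, and in 2 of 8 for Mlh3. Of all 9129 genes tested 20.9% were higher in all 8 harvests by the same rule, so such a pattern was common, and the mean share over all genes was 31.2% in S and 20.03% in G1 cells. Msh6 averaged 60.98% ± 16.03 in S and 30.3% ± 11.1 in G1, and Msh3 averaged 47.6% ± 15.7 in S and 18.5% ± 12.8 in G1 (SD, n = 8 harvests). Pms2 averaged 27.4% ± 8.21 in S and 9.36% ± 2.86 in G1, and Pms1 averaged 16.2% ± 3.33 in S and 2.83% ± 3.33 in G1 (SD, n = 8). Between G2M and G1 the share was higher in 8 of 8 harvests for Msh3, in 7 of 8 for Msh6, Pms2 and Pms1, and in 6 of 8 for Exo1, where 16.3% of all genes were higher in all 8, 36.6% in at least 7 and 56.8% in at least 6. The median number of genes detected per cell moved the same way, with 2025 in G1, 3144 in S and 3052 in G2M dark zone cells, and its part in these shares was not tested. A G1 cell held counts of 0.712 of the 6 genes on average, an S cell 1.98 and a G2M cell 1.56. None of the 6 was counted in 47.9% of G1, 9.52% of S and 17.5% of G2M dark zone cells. Both measures include Exo1, which is in Seurat's S phase gene set, so they are a description. Values without Exo1 are not given.

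**Figure D2:**
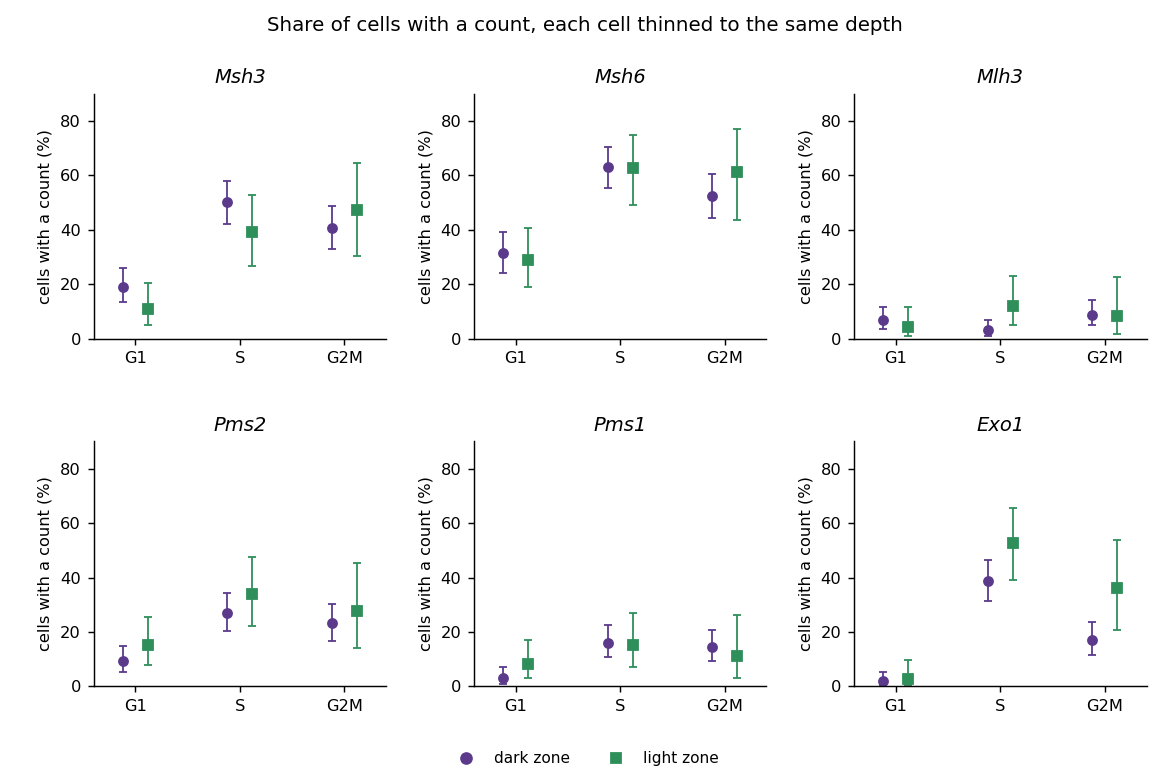
Share of cells with at least 1 count of each gene after thinning every cell to 50000 counts (y axis, percent) by called phase (x axis), for dark zone cells (circles) and light zone cells (squares) of experiments 3 and 4. Bars are exact binomial 95% intervals, which cover counting error only and take cells as independent. Msh3, Msh6, Pms2, Pms1 and Exo1 have their lowest share in G1 in both zones, and Mlh3 stays at or below 11.9% throughout.

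Light zone cells, too, had their lowest shares of Msh3, Msh6, Pms2, Pms1 and Exo1 in G1. Exo1 counts were left in 2.74% of 73 G1, 52.5% of 59 S and 36.1% of 36 G2M light zone cells, and Msh6 counts in 28.8%, 62.7% and 61.1%. Msh3 had 10.96%, 38.98% and 47.2%, with its highest share in G2M, whereas in the dark zone its highest share was in S. The difference of the S against G1 ratio between dark and light zone passed the test for none of the 6 genes (edgeR interaction term, adjusted p = 1 for each, unadjusted p from 0.260 to 0.524), a test chosen after seeing the data.

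Genes that act after recognition were compared in the same fit. The list of 16 resynthesis genes holds the clamp Pcna, its loader subunits, the single-strand binding proteins, polymerase delta subunits, the ligase Lig1 and others. Pcna, Rfc2, Rpa2 and Pold3 are, like Exo1, in Seurat's S phase gene set, so their log2 ratios of S to G1, with a median of 2.62, are a description. Of the other 12 genes, 8 were higher in S than in G1 and none were lower. Their median log2 ratio was 1.23, against 0.18 over all genes tested. The median of 1.35 over the 6 members includes Exo1 and is not a like comparison. Without Exo1 the members ran from -2.30 (Mlh3) to 2.38 (Pms1), with Msh3 in the middle at 1.07. Lig1 had a log2 ratio of 2.78 ± 0.36 (edgeR, adjusted p = 6.4e-05). In G2M 7 of these 12 were higher than in G1, with a median of 1.06 against 0.11 over all genes. Without experiment 3 or 4 the genes of the 12 that passed were 2 and 4 in S and 1 and 3 in G2M, and Lig1 in S then had an adjusted p of 0.0858 and 0.0039 (edgeR). Among the 6 hypermutation genes, Ung, the glycosylase that removes uracil from DNA, is also in Seurat's S phase set and had a log2 ratio of S to G1 of 3.50 ± 0.95. None of the other 5 passed between S and G1. Polh was higher in G2M than in G1 (3.09 ± 0.38; edgeR, adjusted p = 2.8e-05), also without experiment 3 or 4 (0.0072 and 0.0321). Many cycle genes were used for the phase calls: 16 of 20 S phase genes were higher in S (8 and 10 without experiment 3 or 4) and 20 of 20 mitotic genes in G2M (7 and 16). Aimp2, the neighbour of Pms2, did not pass the test between S and G1 (log2 ratio 0.96 ± 0.46; edgeR, adjusted p = 0.309). Among Msh5, Mcm9 and Setd2, the 3 of 5 associated genes that could be tested, none passed.

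Between zones no member passed the test, where 0.323% of 9302 genes did (17 higher and 13 lower in the dark zone, and none without experiment 3 or without experiment 4). Msh3 came closest. Its dark zone sums ran from 72.03 over a median of 89.97 to 104.01 CPM, and its light zone sums from 32.8 over 69.7 to 76.4 CPM (n = 7 harvests each). The dark zone sum was the higher in 7 of 7 harvests, a pattern that 3.43% of all genes tested showed, though the 2 ranges overlapped. Its log2 ratio of dark to light zone was 0.73 ± 0.28 (edgeR, p = 0.0223, adjusted p = 0.415). The size came mainly from experiment 4, whose 3 light zone sums lay between 32.8 and 39.1 CPM, against 82.9 to 104.01 CPM in its dark zone. In experiment 3 the 4 dark zone sums were 72.03 to 99.99 CPM and the 4 light zone sums 69.7 to 76.4 CPM. Without experiment 3 the ratio was 1.38 and without experiment 4 it was 0.21. The ratio was larger in experiment 4 than in experiment 3 by 1.18 ± 0.44 (edgeR interaction term, p = 0.0230, adjusted p = 0.998), also tested after seeing the data. The share of thinned cells with a Msh3 count was 36.7% of 491 dark zone and 28.6% of light zone cells, and was higher in the dark zone in 4 of 7 harvests, as 41.7% of all genes were in at least 4, while 1.59% were in 7 of 7.

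The ranges of the other members overlapped between zones. Msh6 ran from 110.5 over a median of 148.7 to 210 CPM in dark zone sums, and from 65.2 over 156.2 to 190.1 CPM in light zone sums (log2 ratio 0.14 ± 0.18; edgeR, adjusted p = 0.848). Pms2 ran from 21.1 over 32.6 to 52.9 CPM in dark zone sums, and from 1.41 over 28.7 to 84.6 CPM in light zone sums (0.41 ± 0.57; adjusted p = 0.870). Exo1 ran from 16.3 over 32.0 to 60.4 CPM in dark zone sums, and from 1.44 over 27.7 to 104.4 CPM in light zone sums (0.23 ± 0.65; adjusted p = 0.955). The light zone sums of these 3 genes were the more variable. Mlh3 ran from 3.30 to 35.7 CPM in dark zone sums, and from 0 to 24.9 CPM in light zone sums, where 2 of 7 sums held none. Pms1 ran from 8.58 to 30.1 CPM in dark zone sums, and from 0 to 28.6 CPM in light zone sums, where 3 of 7 sums held none. Their fitted log2 ratios of 2.92 ± 1.54 and 2.11 ± 1.52 depend on the prior count for that reason (edgeR, adjusted p = 0.595 and 0.720). All 6 fitted ratios were above 0 with a median of 0.57, against 0.20 over all genes. The share of all genes above 0 is not given, so this count is not read as a trait of the members. Dark zone sums were higher in 4 of 7 harvests for Msh6, Pms2 and Exo1, as 57.9% of all genes were in at least 4. For Mlh3 and Pms1 they were higher in 5 of 7, as 33.6% were in at least 5. The sign of Exo1 and Msh6 was lost when the share of S and G2M cells in each sum entered the fit (-0.40 and -0.0045).

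**Figure D3:**
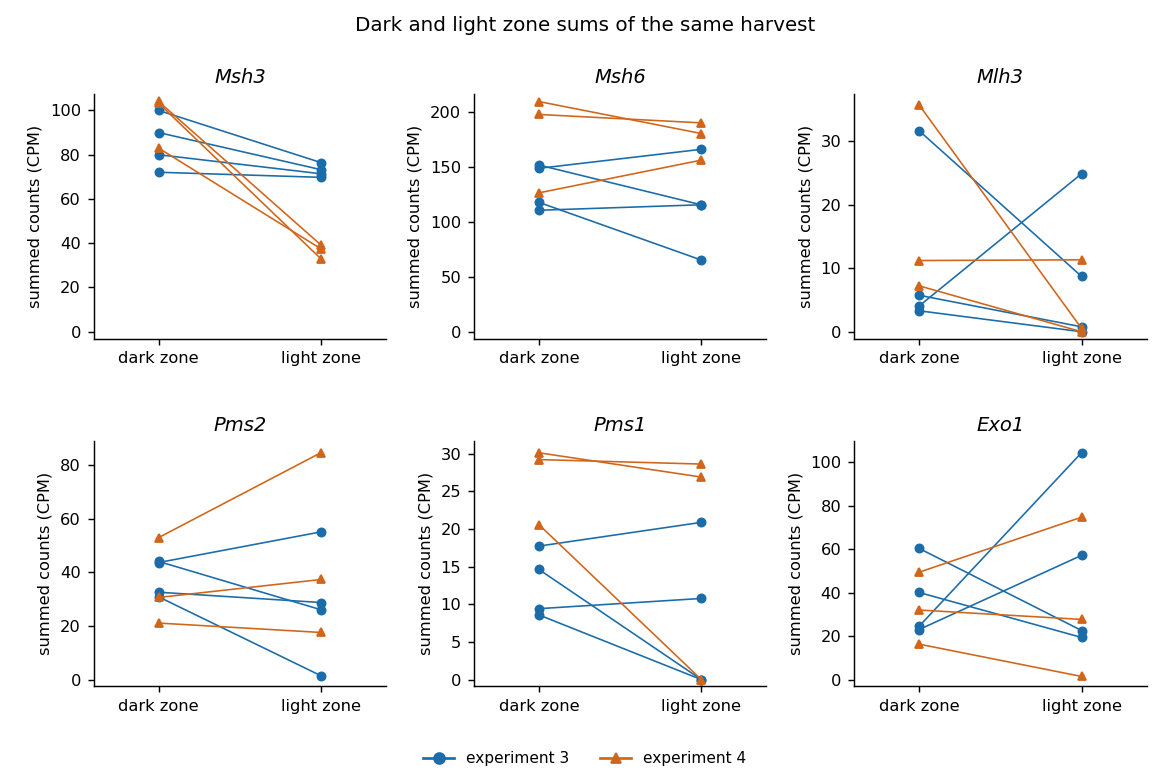
Summed counts (y axis, CPM on a linear scale of its own per panel) in dark zone and light zone cells (x axis). Each line joins both zones of 1 harvest, coloured by experiment. Every Msh3 line falls towards the light zone, steeply in experiment 4 and little in experiment 3, and the lines of the other 5 genes cross.

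Phase shares differed between zones, with 32.9% of G1, 34.1% of S and 32.9% of G2M cells in the dark zone and 44.1%, 34.7% and 21.2% in the light zone. Within each phase again no member passed, and the zone test itself called 0 of 7393 genes in G1 (0% of them), 6 of 8109 in S (0.074%) and 0 of 7719 in G2M (0%). By DESeq2 the same comparisons called 3.31%, 4.01% and 1.20% of genes and none of the 6 members. At an unadjusted p under 0.05, edgeR found 4.41% of genes in G1 and 3.61% in G2M. Summed Msh3 in G1 cells ran from 8.07 over 70.3 to 141.8 CPM in dark zone sums, and from 0 over 25.7 to 66.8 CPM in light zone sums, and the dark zone sum was higher in 6 of 6 harvests, as 4.07% of all genes were (log2 ratio 2.399 ± 1.62; edgeR, adjusted p = 0.998). In S cells it was higher in the dark zone in 4 of 6 harvests and in G2M cells in 3 of 4, as 41.9% and 36.1% of all genes were in at least as many. In S cells its sums averaged 124.2 ± 37.6 CPM for the dark zone, against 62.1 ± 39.8 CPM for the light zone (SD, n = 6; log2 ratio 1.27 ± 0.58; edgeR, adjusted p = 0.690), and in 4 harvests of G2M cells 83.8 ± 32.2 CPM and 59.4 ± 23.2 CPM in the same order (0.51 ± 0.69; adjusted p = 0.999). Over all genes in G1 the median log2 ratio was itself 0.51, and 0.41 with size factors in place of TMM. Mlh3 and Exo1 had too few counts in G1 to be tested. Msh6 in S cells averaged 187.4 ± 85.5 CPM for the dark zone, against 264.6 ± 138.6 CPM for the light zone (SD, n = 6; -0.40 ± 0.29; edgeR, adjusted p = 0.868). Pms1 was higher in the dark zone in 4 of 4 harvests of G2M cells, as 9.51% of all genes were. In S cells it was higher in 5 of 6 harvests, as 17.5% of all genes were in at least 5. In G1 cells it was higher in 2 of 6 harvests. Exo1 and Pms2 were higher in the dark zone in 1 of 4 harvests of G2M cells. In G2M cells Pms1 dark zone sums ran from 13.7 to 55.4 CPM and its light zone sums from 0 to 31.7 CPM (adjusted p = 0.999).

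Across times in the dark zone no member and no other gene passed (0 of 11662 genes by edgeR's F test, 1.47% of genes at an unadjusted p under 0.05, and 5 genes after adjustment by DESeq2). In experiments 3 and 4 summed Msh3 had 70.2 and 103.99 CPM at the 12 h point, then 86.99 and 102.8 CPM (30 h), 96.3 and 80.04 CPM (46 h), and 77.8 and 134.6 CPM (60 h). The experiments moved in opposite directions after 30 h. The sums of experiment 1, whose time was 30 h in one place and 36 h in another, were the highest of all dark zone sums for Msh3 (142.9 CPM), Msh6 (327.6 CPM), Pms2 (75.6 CPM) and Pms1 (83.4 CPM), with 52.1% of the Msh6 counts and 79.4% of the Pms1 counts from 1 cell each. Experiment 1 also had the deepest cells, at a median of 417105 counts. Mlh3 was 30.9 and 35.9 CPM at 12 h in experiments 3 and 4, above its sums at 30 h (3.19 and 11.1 CPM), 46 h (5.54 and 6.97 CPM) and 60 h (3.94 and 23.2 CPM). At 12 h both experiments thus had their highest Mlh3 sum, without passing the test (edgeR, adjusted p = 1; unadjusted p = 0.369).

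In the light zone 8 of 11662 genes passed the F test over times (0.0686%), and Pms1 missed it narrowly. Summed Pms1 was 31.6, 10.6 and 29.1 CPM at 12 h in experiments 1, 3 and 4, and 20.1 and 26.8 CPM at 30 h in experiments 3 and 4. At 46 h it had no count in the 11 and 17 cells of experiments 3 and 4, where 3 counts would be 1.13 and 0.602 CPM, and none in the 21 cells of experiment 3 at 60 h. The 5 cells of experiment 4 at 60 h, too few for a sum here, brought the count at 60 h to 2 of 26 cells. Pms1 was seen in 0 of 28 cells at 46 h (exact binomial 95% interval 0% to 12.3%) and in 9 of 72 cells at 12 h (12.5%, 5.88% to 22.4%) of experiments 3 and 4, and these intervals overlap. The test over times gave an adjusted p of 0.0514 with edgeR, 4.5e-10 with DESeq2 and 0.0414 with limma on cells weighted equally. Over these times DESeq2 called 7.49% of all genes, against 0.0686% by edgeR. The single contrast of 46 h against 12 h gave an adjusted p of 0.0258 with edgeR, where 0.472% of all genes passed. Its fitted log2 ratio of -11.43 rests on sums at 0 and depends on the prior count. Leaving out an experiment gave F test values of 0.0911 to 0.207. Pms2 was 1.36 CPM at 60 h in experiment 3, from 1 of 21 cells, against 28.3, 25.04 and 53.3 CPM at 12, 30 and 46 h of that experiment (F test, edgeR, adjusted p = 0.315; DESeq2, 0.0281). Msh3 stayed between 68.7 and 74.002 CPM in experiment 3 and between 33.4 and 39.05 CPM in experiment 4 over the light zone times.

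**Figure D4:**
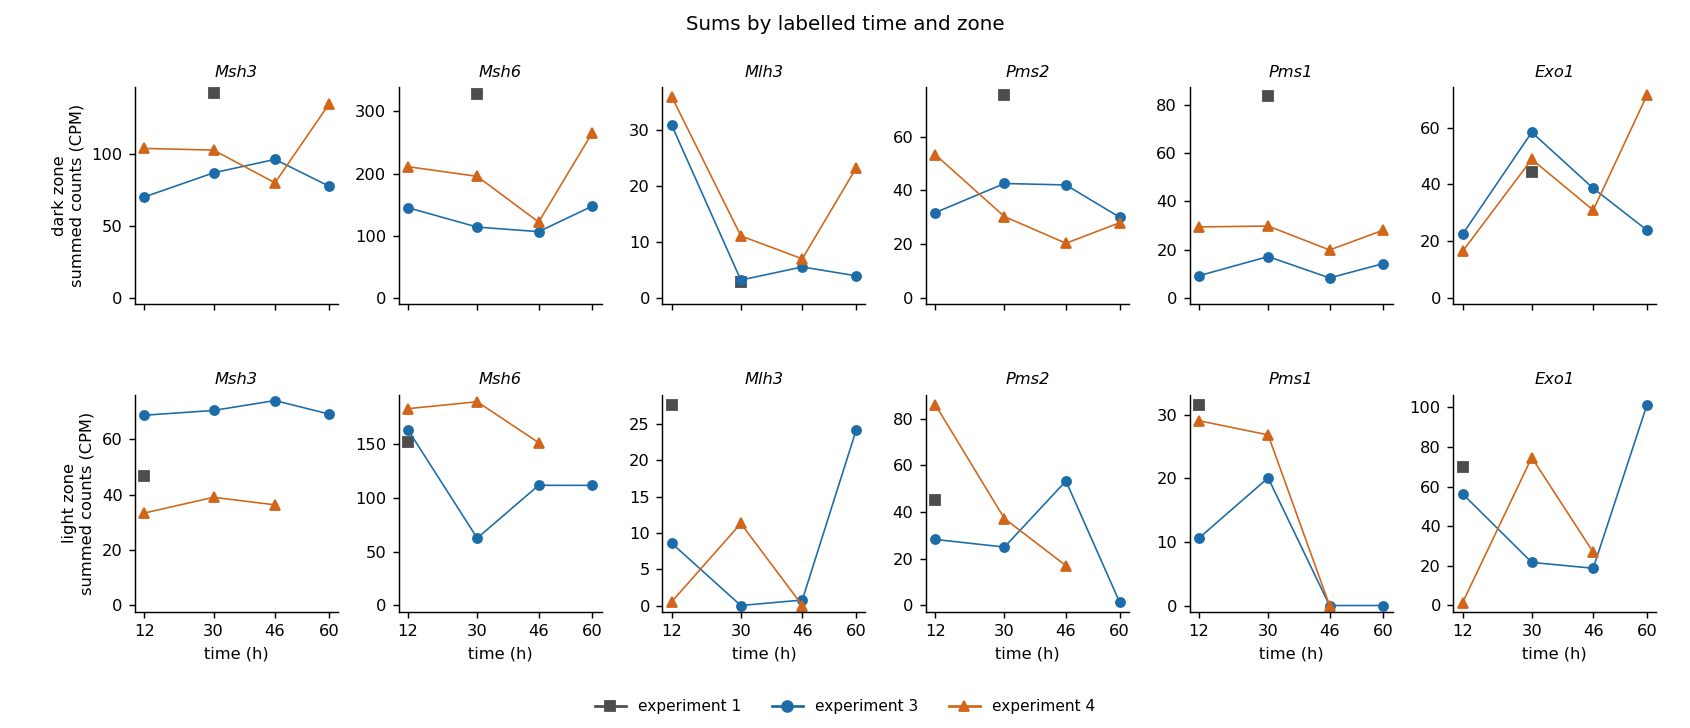
Summed counts (y axis, CPM on a linear scale of its own per panel) by labelled time (x axis, h) in dark zone cells (upper row) and light zone cells (lower row), by experiment. Light zone Pms1 is at 0 at 46 h in experiments 3 and 4 and at 60 h in experiment 3, the only light zone sum at 60 h, and light zone Msh3 stays level within each experiment.

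In experiment 5 each genotype came from 1 experiment whose 4 plates each held every genotype, and no label says that plates came from separate animals. Differences are therefore given as values, with a fit over plate sums, added after the data were seen, whose p-values measure the spread between plates only. In dark zone cells 3 of the 5 members that reached 20 CPM in KO or WT cells were at least 2-fold apart between KO and WT, where 27.5% of all genes were. Msh6 sums on plates 1 to 4 were 68.5, 7.03, 62.3 and 44.98 CPM in KO, against 93.5, 120.2, 275.1 and 150.4 CPM in WT dark zone cells. The KO sum was lower on 4 of 4 plates and the ranges did not overlap, as for 13.3% and 5.22% of all genes. Over all plates it was 48.5 CPM in KO (exact Poisson 95% interval 44.1 to 53.2) and 164.6 CPM in WT (157.3 to 172.1), a log2 ratio of -1.74 on the CPM + 1 scale. Intervals cover counting error only. Over plates the fitted log2 ratio was -1.83 ± 0.61 (edgeR with plate as a block, p = 0.0070, adjusted p = 0.737). In light zone cells Msh6 was 76.9, 52.01, 108.2 and 59.95 CPM in KO, against 270.4, 83.95, 241.7 and 102.9 CPM in WT, again lower on 4 of 4 plates, as 7.48% of all genes were (log2 ratio -1.12), though these ranges overlapped.

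Exo1 had the lowest ratio of KO to WT among the members. On plates 1 to 4 it was 6.3, 0, 8.5 and 0 CPM in KO dark zone cells, against 17.4, 27.6, 69.96 and 56.1 CPM in WT. Over all plates it was 3.97 CPM in KO (2.79 to 5.47) and 44.2 CPM in WT (40.5 to 48.2), with a log2 ratio of -3.19. Only 2 of 62 KO cells had an Exo1 count, against 14 of 82 WT cells. Over plates its fitted log2 ratio was -3.96 ± 1.70 and depends on the prior count, with plates at 0 (edgeR, p = 0.0305, adjusted p = 0.865). No member passed this test between KO and WT in either zone, where 0 genes passed in the dark zone (5.62% at an unadjusted p under 0.05) and 3 of 11377 in the light zone (0.0264%). In the light zone it was 9.21 CPM in KO and 50.9 CPM in WT (log2 ratio -2.35), lower in KO on 3 of 4 plates. There 3 of 6 members were at least 2-fold apart, where 34.8% of all genes were. Mlh3 went the other way in the light zone, with 35.5 CPM in KO cells (7 of 61 with a count, 46.2% of the sum from 1 cell), against 1 count in 41 WT cells (0.193 CPM, interval 0.0049 to 1.08). In the dark zone it was 21.02 CPM in KO and 9.29 CPM in WT, and higher in KO on 2 of 4 plates. Msh3 was 105.5 CPM in KO and 134.1 CPM in WT dark zone cells, and Pms2 46.9 and 32.7 CPM in the same order.

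**Figure D5:**
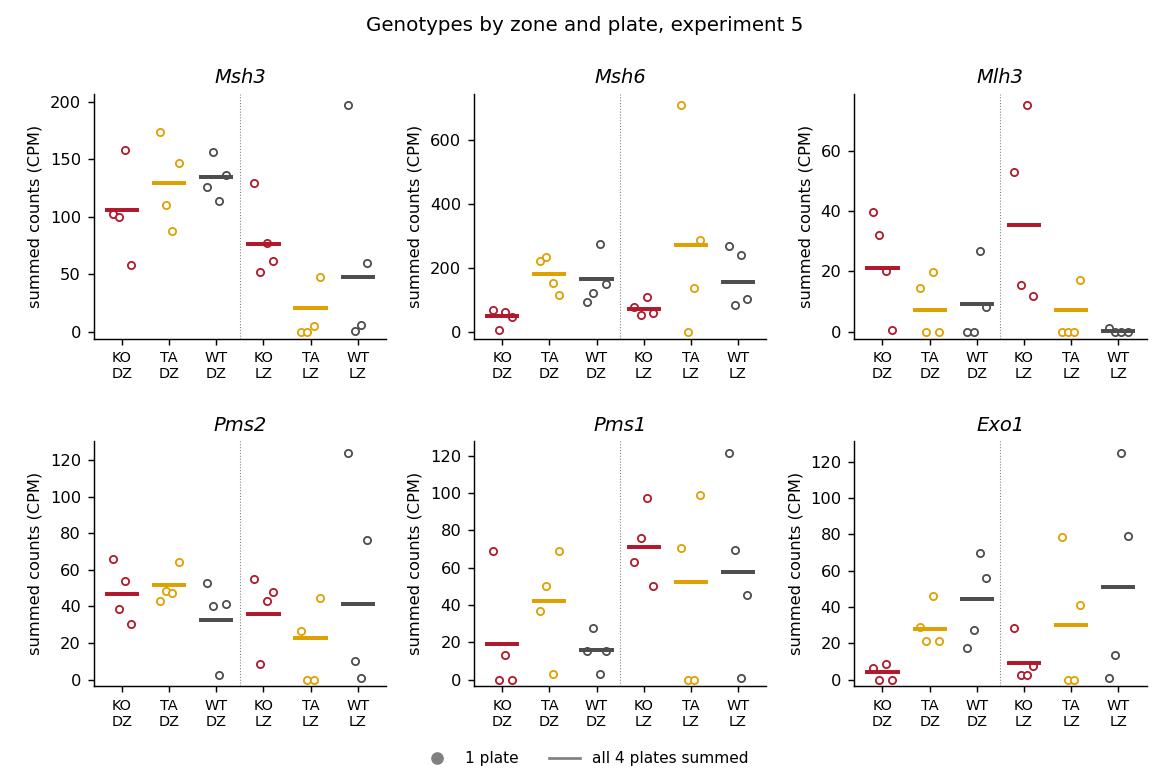
Summed counts (y axis, CPM on a linear scale of its own per panel) in KO, TA and WT cells of the dark zone (DZ, left) and light zone (LZ, right) of experiment 5. Circles are single plates and bars all 4 plates together. The Msh6 and Exo1 plates of KO dark zone cells lie below those of WT dark zone cells, as those of 5.22% of all genes do.

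Phase shares differed strongly between genotypes. Of KO dark zone cells 77.4% were called G1, 3.23% S and 19.4% G2M, against 22.8%, 45.5% and 31.7% of TA and 46.3%, 24.4% and 29.3% of WT dark zone cells. Within G1 alone Msh6 was 55.5 CPM in 48 KO dark zone cells (50.2 to 61.3), 57.3 CPM in 23 TA cells (50.1 to 65.4) and 178.7 CPM in 38 WT cells (167.1 to 190.9). In TA 1 cell held 95.1% of these counts, in KO 39.3% and in WT 20.6%. Without that cell of each group, left out after the values were seen, the sums were 34.2 CPM in KO, 2.95 CPM in TA and 145.6 CPM in WT dark zone cells. In G1 cells of the light zone it was 46.8 CPM in 45 KO cells, 201.2 CPM in 12 TA cells and 29.8 CPM in 15 WT cells, so the dark zone order was not repeated. There 1 cell held 36.9% of the counts in KO, 46.2% in TA and 41.2% in WT. After thinning, a Msh6 count was left in 17.02% of KO, 8.70% of TA and 27.8% of WT G1 dark zone cells, with overlapping intervals (7.65% to 30.8%, 1.07% to 28.04% and 14.2% to 45.2%). Exo1 had no count in the G1 dark zone cells of any genotype. The Poisson upper limits were 0.513 CPM in KO, 0.949 CPM in TA and 0.745 CPM in WT. These limits cover counting error only and take counts as independent, whereas cells of experiment 5 with Exo1 held a median of 26 counts. With 2 KO dark zone cells in S, Exo1 within S could not be compared there. In light zone S cells it was 47.9 CPM in 9 KO cells, 70.3% of it from 1 cell, and 87.6 CPM in 18 WT cells, 31.5% of it from 1 cell.

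Summed markers of other cells differed between the KO and WT groups. Of 8 T cell markers 7 were in the table of experiment 5, and their summed level per plate ran from 192.8 to 406 CPM in KO and from 86.5 to 133.7 CPM in WT dark zone cells, none of the 7 at 0. The 5 plasma cell markers summed to 2628 to 11082 CPM in KO, with none at 0, and to 1734 to 3406 CPM in WT dark zone cells, where Prdm1 was at 0. The 3 myeloid markers in the table summed to 0 to 41.3 CPM in KO, with Csf1r at 0, and to 0.347 to 5.17 CPM in WT dark zone cells. The median share of mitochondrial counts was 10.8% in KO and 6.93% in WT dark zone cells. In the light zone the T cell markers ran from 73.7 to 227.9 CPM in KO and from 120.002 to 443.6 CPM in WT, the plasma cell markers from 1332 to 6321 CPM in KO and from 1195 to 1844 CPM in WT, and the myeloid markers from 4.27 to 61.9 CPM in KO, with none found in WT. Their part in the member values was not tested. S phase genes were lower too: 19 of the 19 at 20 CPM or more were at least 2-fold lower in KO than in WT dark zone cells, where 15.9% of all genes were, and 8 of 16 resynthesis genes were.

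TA dark zone cells were compared with the same WT cells. Of the 5 members at 20 CPM or more 1 was at least 2-fold apart, where 18.4% of all genes were and 8.12% were higher in TA. Pms1 was 42.4 CPM in TA and 15.7 CPM in WT (log2 ratio 1.38, higher on 3 of 4 plates), with 38.5% of the TA sum from 1 cell. Msh3 was 129.04 CPM in TA and 134.1 CPM in WT, Msh6 180.8 and 164.6 CPM, Pms2 51.6 and 32.7 CPM, and Exo1 28.1 and 44.2 CPM in the same order. TA light zone cells numbered 22, and 42.6% of all genes were at least 2-fold apart from WT there, as was 1 of 5 members. That member was Msh3, with 20.8 CPM in TA, 93.4% of it from 1 cell, and 47.8 CPM in WT. Without plate 1 its log2 ratio of -1.16 became 0.54. Over plates no member passed between TA and WT (edgeR, adjusted p from 0.575 to 1), where 1 gene passed in the dark zone (0.00879%) and 70 in the light zone (0.615%).

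Dec+ and Dec- light zone cells at 12 h came from 3 plates of experiment 1 alone, each with both groups, and are given in the same way. Of the 6 members 2 were at least 2-fold apart, where 31.1% of all genes were. Exo1 was 24.1, 82.6 and 96.98 CPM on plates GC1, GC2 and GC3 in Dec+ cells, against 23.8, 11.003 and 53.2 CPM in Dec- cells. Its log2 ratio over all plates was 1.28. On these plates 1 cell held 21.7%, 73.6% and 60.4% of the Dec+ sum, and 59.4%, 91.7% and 43.2% of the Dec- sum. As a mean of CPM per cell Exo1 was 46.7 in Dec+ and 48.99 in Dec- cells, a log2 ratio of -0.07. Pms1 was 27.7 CPM in Dec+ and 97.2 CPM in Dec- cells, with 84.4% of the Dec- sum from 1 cell, and its log2 ratio was -1.77 on sums, 0.59 on means per cell and 1.07 without plate GC2. Msh3 was 41.1 CPM in Dec+ and 43.8 CPM in Dec- cells, and Msh6 133.5 and 130.1 CPM in the same order. After thinning, all members but Mlh3 had a higher share in Dec+ cells, from 47.6% of Dec+ against 35% of 80 Dec- cells for Msh6 to 22.3% against 20% for Pms2, with overlapping intervals for each gene, and 74.3% of all genes had a higher share in Dec+ cells. The median number of genes detected per cell was 2880.5 in Dec+ and 2259.5 in Dec- cells, and the 5 B cell markers summed to 3957 to 4800 CPM in Dec+ and to 6219 to 8329 CPM in Dec- cells per plate. Their part in the shares was not tested. Over plates no member passed (edgeR with plate as a block, adjusted p from 0.870 to 0.998), and none of 9632 genes did (6.32% at an unadjusted p under 0.05). Without thinning the Pms2 shares were 24.7% in Dec+ and 25% in Dec- cells. More Dec+ cells were called S, 43.98% against 31.3% of Dec- cells. Within G1, Msh6 counts were left in 27.1% of 70 Dec+ and 23.4% of 47 Dec- cells, and Msh3 in 10.0% and 10.6%.

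Across the 17 sums of the time course, log2 levels of pairs of members correlated at Pearson's r from -0.53 (Pms2 and Exo1) to 0.51 (Pms2 and Pms1), with a median of 0.29, and 12 of the 15 pairs were above 0. No such values over all pairs of genes are given, so this count is not read as a trait of the members. Other genes, kept where they averaged at least 20 CPM, correlated more closely with single members. For Msh6 the closest were Sde2 (r = 0.81), Mcm2, a subunit of the replicative helicase (0.81), and the chaperone Hspa4 (0.81). For Msh3 they were Rassf6 (0.84), Pou2af1, a B cell coactivator (0.83), and Arhgdia (0.83). For Exo1 they were Tpra1 (0.86), Ascc2 (0.85) and Nup85 (0.84), for Pms2 Trak2, Pptc7 and Arih1 (0.93, 0.93 and 0.92), for Pms1 Evi2a, Golph3 and Hsd17b4 (0.96, 0.95 and 0.95) and for Mlh3 Fads1, Eif3c and Nup88 (0.89, 0.88 and 0.88). These are the highest of 6181 or 6182 values per member over 17 sums that share libraries and depth, and they describe these sums only.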

How the data were processed

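RNA of single sorted mouse B cells was read by SmartSeq2, per the labels' protocols. The deposited tables hold expected counts per gene, and the submitters' processing notes name STAR 2.6, RSEM 1.3.1, the build mm10 and Seurat 3.1.4. The deposited cell tables also hold the authors' phase calls, scores and percent of mitochondrial counts. Cells of experiment 2 were left out, since 255 columns matched no single labelled well.

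Expected counts were summed over the cells of a harvest and zone (at least 10 cells) or phase (at least 5), rounded and tested with edgeR 4.0.16 in R 4.3.3 (quasi-likelihood, TMM scaling, filterByExpr, Benjamini-Hochberg adjustment over all genes tested, threshold 0.05). Harvest was a block in the zone and phase fits, since sums of 1 harvest share the experiment, the time and the plates. Per the labels' protocols a plate held all conditions of a replicate, and the plates of an experiment were pooled within each harvest. Same-harvest sums had correlated deviations of 0.0006 to 0.231 in the zone fit and of -0.003 to 0.227 in the phase fit. CPM in zone, time and phase comparisons are TMM-scaled, and CPM in experiment 5 and in the Dec comparison are not. Those 2 comparisons have 1 experiment: their log2 ratios are values with no test and use a pseudocount of 1 CPM, and genes need 20 CPM in either group. An edgeR fit over plate sums of at least 5 cells, with plate as a block, was added after seeing the data. Shares use cells thinned to 50000 counts. Intervals are exact at 95% and cover counting error only. The edgeR steps were tested on simulated data, where the fit over plates called few of the changed genes, so a member that misses its threshold is not shown to be alike in both groups.

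The members and lists were chosen with earlier results of these data known. The genes named besides the members are those of each list past the threshold or among its 4 largest log2 ratios, and for each member the 3 genes with the highest Pearson's r. Alternatives were DESeq2 1.42.0, limma 3.58.1, other scaling, filters, blocks and cells, and leaving out each experiment or plate. Results on some genes, and the letters of the sequence upstream of Msh3, are not reported here.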

Additional observations from a re-analysis of the deposited data

Results flagged for a closer look

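In 66 groups of 4 to 10 sums, 4 sums stood far from the others of their group. The limit used is set so that chance flags about 1 in 20 groups of normally spread values. Many of these sums were at 0, and the rate for such groups was not tested.

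Mlh3 reached 73.2 CPM in light zone G1 cells of experiment 3 at 60 h, against 4.35 CPM in the next of 6 sums, and all of it came from 1 of 7 cells. Pms2 reached 124.1 CPM in light zone G1 cells of experiment 4 at 12 h, against 18.1 CPM in the next of 6 sums, with counts in 8 of 15 cells. Exo1 reached 4.48 CPM in dark zone G1 cells of experiment 3 at 60 h, against 0.447 CPM in the next of 6 sums, and all of it came from 1 of 18 cells. These 6 sums are those of harvests with both zones in G1. Over all 8 dark zone G1 sums of the phase comparison it did not stand alone: experiment 4 at 60 h had 4.82 CPM, from 3 of 25 cells, experiment 3 at 60 h had 4.41 CPM by the scaling of that fit, and 5 sums had none. Mlh3 reached 18.2 CPM in light zone G2M cells of experiment 4 at 30 h, from 3 of 8 cells, and the other 3 sums held none.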

How the results depend on the processing

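Of 436 log2 ratios of members under alternatives, 387 were counted as unchanged and 26 as reversed. In the tested comparisons, unchanged ratios kept their direction and side of the threshold. In the comparisons with 1 experiment, unchanged ratios kept their side of 2-fold, and a change of sign counted as reversed only from 2-fold upwards. Smaller ratios that changed sign there are thus not among the 26. Msh3 between Dec+ and Dec- cells, at -0.089 over all plates and 0.92 without plate GC3, is an example. No reversed ratio of a tested comparison had passed the test. The number of members called changed only for light zone times (0, but 2 with DESeq2, 1 with limma and 1 with PB wells added), S against G1 (1, but 2 with DESeq2 and 0 to 0 without an experiment) and G2M against G1 (1, but 0 to 0 without an experiment). The share of all genes called moved more. Between zones it was 0.323%, against 5.07% with DESeq2, 0.0108% without the replicate block, 0.677% with limma, 0.0317% with sums of at least 20 cells, 0.716% without cells marked for both zones, 0.164% with tables per experiment, 0.118% with the share of S and G2M cells as a covariate, and 0% to 0% without an experiment. For dark zone times it was 0%, against 0.0429% with DESeq2. For light zone times it was 0.0686%, against 7.49% with DESeq2, 0% without the block, 0.986% with limma, 0.0426% with sums of at least 20 cells, 0.162% with PB wells, and 0% to 0% without an experiment. For S against G1 it was 6.15%, against 13.1% with DESeq2, 3.95% without the block, 0.9498% in light zone cells and 0.945% to 1.22% without an experiment. For G2M against G1 it was 5.42%, against 11.8% with DESeq2, 0.614% in light zone cells and 0.934% to 1.46% without an experiment. Between zones within G1 it was 0%, against 0.00918% with no filter, 3.31% with DESeq2 and 0.0265% without experiment 4. Within S it was 0.074%, against 4.01% with DESeq2, 0% without the block and 0% to 0% without an experiment. Within G2M it was 0%, against 0.0182% with no filter and 1.20% with DESeq2.

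Reversed log2 ratios between zones were those of Msh6 (-0.0045 with the covariate, -0.039 to 0.24 without an experiment), Pms2 (-0.27 to 0.99 without an experiment) and Exo1 (-0.32 without the block, -0.40 with the covariate, -0.25 to 0.84 without an experiment). Between phases they were Mlh3 in S (0.90 in light zone cells), Msh6 in G2M (0.029 without the block, 0.20 with sums of at least 10 cells, -0.59 to 0.43 without an experiment) and Mlh3 in G2M (-1.09 without the block, -1.51 in light zone cells, -1.42 to 5.36 without an experiment). Between zones within a phase they were Pms2 in G1 (-0.23 without the block, -1.49 with sums of at least 10 cells), Msh6 in S (-0.85 to 0.065 without an experiment), Mlh3 in S (-0.52 with DESeq2, -1.63 to 1.84 without an experiment), Pms2 in S (-0.45 to 2.21 without an experiment), Exo1 in S (-0.28 without the block, -0.53 to 0.93 without an experiment) and Pms2 in G2M (0.062 with limma). Between Dec+ and Dec- cells 2 members were at least 2-fold apart, 0 by mean CPM per cell and 2 to 4 without a plate. There Pms1 was 0.59 by mean CPM and -2.09 to 1.07 without a plate, and Exo1 was -0.068 by mean CPM. Between TA and WT dark zone cells 1 member was 2-fold apart, and 0 without plate 4. Between TA and WT light zone cells it was 1, against 2 by mean CPM and 1 to 3 without a plate, with Msh3 at -3.78 to 0.54 without a plate. The causes were not tested. The zone tests within G1 without experiment 3, within G2M without either experiment, and within S or G2M with sums of at least 10 cells were not run, since fewer than 3 harvests with both zones were left.

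Phase sums held 6 to 30 cells, and in some of them all counts of Mlh3 or Pms1 came from 1 cell. Without molecular identifiers such counts are not independent molecules. The labels do not say that plates are separate animals. In the fits over plates 0 members were called in each of the 5 comparisons, and 0 to 0 without any 1 plate. TA light zone cells of plate 2, fewer than 5, were left out of that fit.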
